A study of Mus musculus with 12 samples.

Results

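The proteasome family measured in MC38 cells comprised 46 genes of 18193 that had a probe set of their own on the array. They were chosen by symbol, as every gene whose symbol begins with Psma, Psmb, Psmc, Psmd, Psme, Psmf or Psmg followed by a digit, without the immunoproteasome subunits Psmb8, Psmb9 and Psmb10. The rule found 48 symbols. Psme2 and Psme2b lay only on a probe set shared between them, so that probe set is described apart and is in no count. Psmc3ip and Psme3ip1 entered through their symbols although neither is a proteasome subunit. Each gene was read from 1 probe set, its brightest on average. Of the 46 genes, 44 reached a log2 value of 5 on at least 3 arrays. The exceptions were Psma8, a testis subunit, and Psmb11, a thymus subunit, at means of 2.96 and 3.48, in the background range of the array.

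MC38 is a mouse colon carcinoma line of C57BL/6 origin, and 1 line was used, grown as a monolayer without other cell types. Cells received 100 nM GDC-0623, an inhibitor of the kinase MEK, or the solvent DMSO at a matched amount, and RNA was taken after 72 h or 24 h. The 4 groups of 3 arrays were GDC-0623 at 72 h, DMSO at 72 h, GDC-0623 at 24 h and DMSO at 24 h, and the labels call the 3 arrays biological replicates. Each value is a log2 expression value of the deposited table after robust multichip averaging (RMA), so a difference of 1 is a doubling. Calls are adjusted p-values under 0.05 from limma, adjusted over all 45037 probe sets tested, and errors of fold changes are standard errors of the fit. The array medians lay between 4.63 and 4.7, and the lowest correlation between arrays was 0.974. GDC-0623 replicate 1 at 72 h stood apart from its group, at 77.4 on the first principal component against 44.8 and 49.8 for the others. Of the cell markers, 4 of 4 mesenchymal genes were at 8.27 or more, 2 of 7 epithelial genes and 3 of 6 leukocyte genes had means between 5 and 5.58, and 0 of 4 endothelial genes reached 5. Egr1 and Dusp6, targets of MEK signalling, had log2 fold changes of −5.57 and −1.49 at 72 h and of −4.9 and −2.12 at 24 h (limma adjusted p of at most 9.42e-04 in each).

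The proteasome is the barrel-shaped protease that degrades ubiquitin-tagged proteins and cuts many of the peptides shown on MHC class I. Its core consists of rings of alpha subunits around rings of beta subunits, of which Psmb5, Psmb6 and Psmb7 cut. The regulatory particle on its end has a base with the ATPases Psmc1 to Psmc6, which unfold the substrate, and a lid, which removes ubiquitin. PA28, made of Psme1 and Psme2, is an alternative cap that opens the core without ATP. Interferons are known to induce PA28 together with Psmb8, Psmb9 and Psmb10, which replace the constitutive cutting subunits in the immunoproteasome. Dedicated chaperones build the particle, with Psmg1 to Psmg4 acting on the alpha ring, Pomp on the beta ring, and Psmd5, Psmd9 and Psmd10 on the base.

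The sequence around the start is shown for Psme1, Psme3, Psmg1 and Psmg3, which were called at both times and had an entry in the promoter table. Psmd7 and Psmc3ip were also called at both times. Psmd7 had no entry, and Psmc3ip, which is no proteasome subunit, is not shown. The sequences are from RefSeq, build GRCm38.p6, written 5′ to 3′ on the strand of the gene, and run 200 bases before to 30 bases after the annotated start. Capitals mark the letters of 2 motifs searched on both strands. In Psme1 they are GAAA followed, after any 2 bases, by GAAA, which resembles an interferon response element, and in the other genes CCGGAAG, which resembles a site of ETS factors. Other motifs were counted too and are not marked here, although the promoters of Psme3 and Psmg1 held letters of some of them. The regions are chr14:55578294-55578523 on the plus strand for Psme1, chr11:101316013-101316242 on the plus strand for Psme3, chr16:95990931-95991160 on the minus strand for Psmg1 and chr5:139826865-139827094 on the minus strand for Psmg3.
Psme1: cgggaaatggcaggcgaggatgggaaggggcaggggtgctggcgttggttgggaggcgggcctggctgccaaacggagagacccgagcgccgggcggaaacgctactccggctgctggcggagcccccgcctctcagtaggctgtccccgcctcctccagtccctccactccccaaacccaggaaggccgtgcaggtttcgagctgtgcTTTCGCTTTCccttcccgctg
Psme3: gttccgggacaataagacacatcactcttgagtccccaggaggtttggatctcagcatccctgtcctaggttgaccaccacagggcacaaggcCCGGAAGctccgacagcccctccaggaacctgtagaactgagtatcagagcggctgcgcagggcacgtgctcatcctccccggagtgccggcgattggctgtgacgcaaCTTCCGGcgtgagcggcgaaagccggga
Psmg1: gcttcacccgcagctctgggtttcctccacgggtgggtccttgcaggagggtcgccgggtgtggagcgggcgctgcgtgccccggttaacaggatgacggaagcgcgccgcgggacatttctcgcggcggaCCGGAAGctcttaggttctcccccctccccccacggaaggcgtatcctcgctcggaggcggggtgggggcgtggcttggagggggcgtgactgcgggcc
Psmg3: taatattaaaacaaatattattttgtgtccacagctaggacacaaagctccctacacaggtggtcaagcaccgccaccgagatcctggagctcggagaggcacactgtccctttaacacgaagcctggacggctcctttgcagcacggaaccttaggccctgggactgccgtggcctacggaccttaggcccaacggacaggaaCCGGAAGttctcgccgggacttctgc
The letters in Psme1 begin 10 bases after the start, as TTTCGCTTTC on the strand shown. Psme3 holds CCGGAAG 107 bases before the start and its reverse complement CTTCCGG at base 3 after it. Psmg1 holds CCGGAAG 69 bases before the start, and Psmg3 holds it at base 5 after the start. A match of letters is a description and not a bound site.

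Under GDC-0623 the PA28 activator Psme1 was higher, the activator Psme3 and alpha ring chaperones were lower, and most core and regulatory subunits were not called. At 72 h, 1 of 46 genes was called higher (2.17%, against 13.8% of all genes) and 12 were called lower (26.1%, against 12.4% of all genes). At 24 h, 2 genes were called higher (4.35%, against 13.3%) and 5 lower (10.9%, against 8.23%). The median log2 fold change of the family was −0.16 at 72 h and −0.04 at 24 h, and that of all genes was −0.03 at each time. Among the 11052 genes at 5 or more on 3 arrays, which are nearer to the family in level, 19% were called lower at 72 h and 12.3% at 24 h. In this bulk RNA, a lower level in every cell and fewer cells with a high level cannot be told apart.

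**Figure D1:**
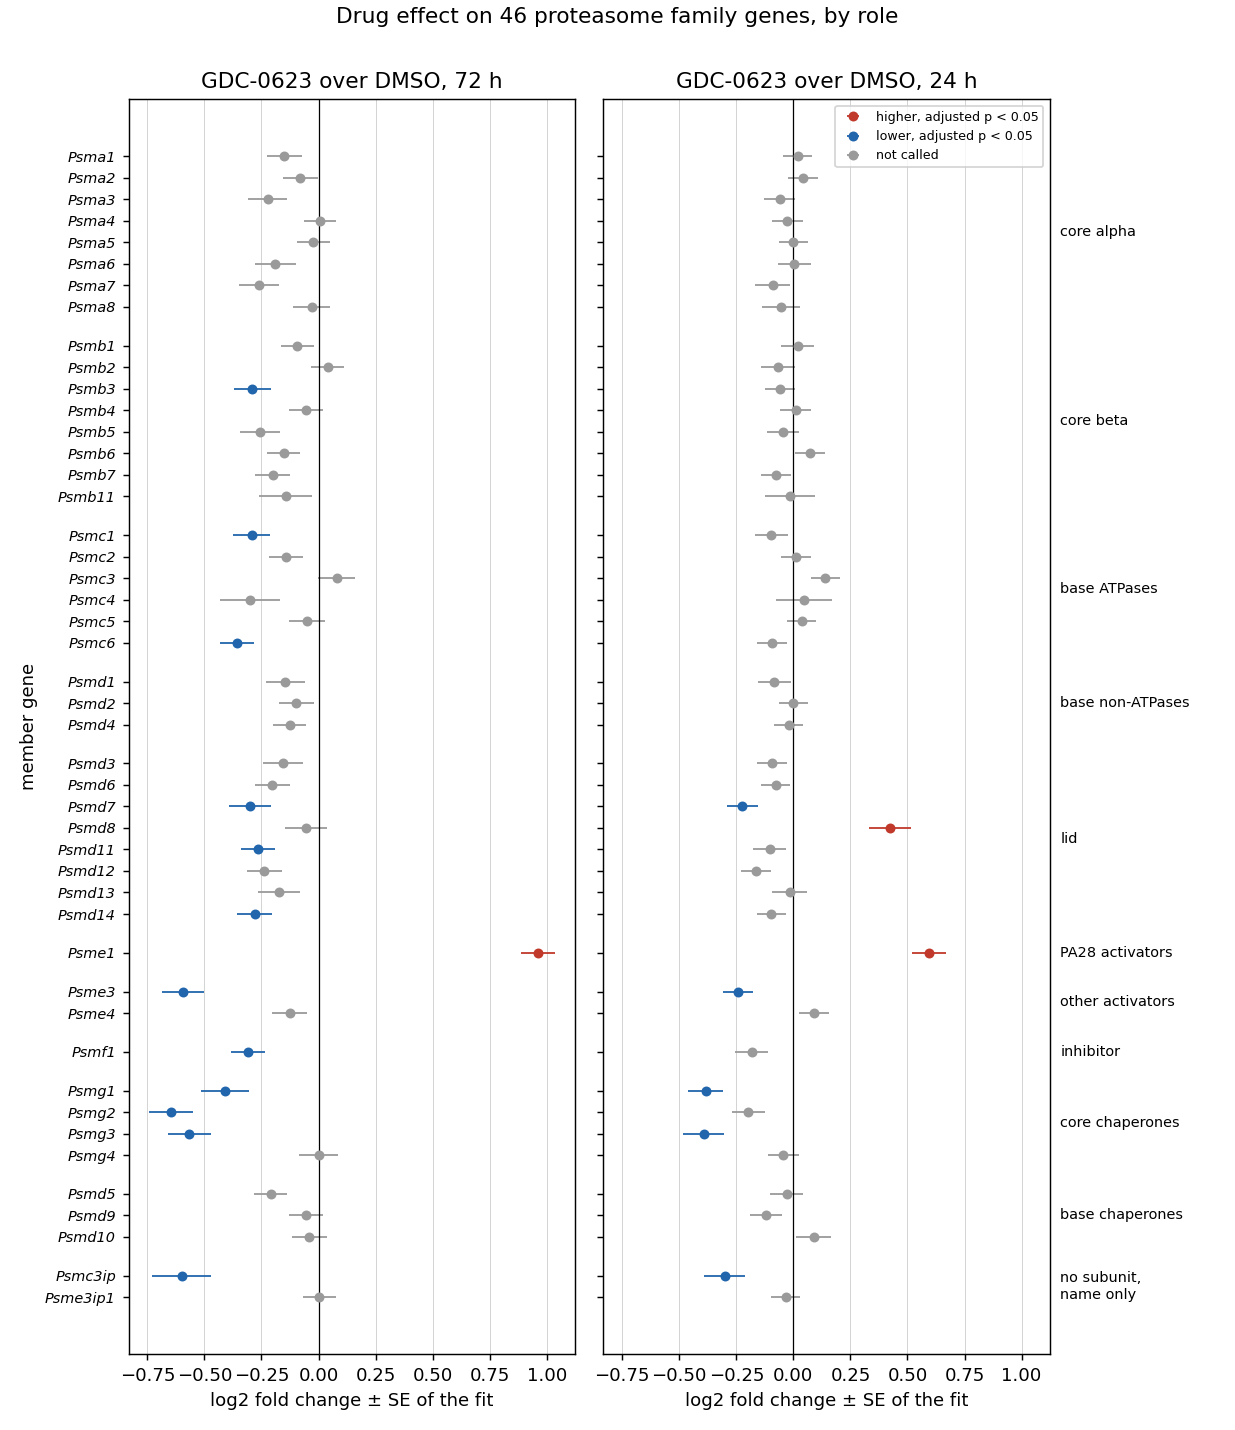
Log2 fold change of GDC-0623 over DMSO for each of the 46 genes, at 72 h on the left and at 24 h on the right, grouped by role. Points are fold changes and bars the standard error of the limma fit (3 arrays per group), red and blue mark called genes, and at 72 h Psme1 is the only red point, at 0.96, while 12 points are blue.

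In counts of arrays, 27 of the 46 genes had all 3 GDC-0623 arrays below all 3 DMSO arrays at 72 h (58.7%, against 23.7% of all genes and 32.3% of the genes at 5 or more on 3 arrays), and 1 gene had them all above (2.17%, against 21.3% of all genes). At 24 h the groups were separate for 13 genes on the lower side (28.3%, against 20% of all genes and 25.5% of the genes at 5 or more on 3 arrays) and for 5 on the higher side (10.9%, against 21.2%). The number of genes called lower depended on the fit. At 72 h it was 19 with 1 fit over the 12 arrays, 19 with a trended and robust prior and 18 with dim probe sets left out, against 6 when arrays were shifted by their hybridization control probe sets and 2 when a fold of at least 1.2 was required. It was 7 without the outlying GDC-0623 replicate 1 and 5 without DMSO replicate 1, 2 or 3. At 24 h it was 8 with the trended and robust prior and 8 with dim probe sets left out. It was 0 with the shift, which left 2 higher and 0 lower, and 0 with the minimum fold. The shift put the 24 h median of all genes at 0.14 and that of the family at 0.12. Leaving out DMSO replicate 1 or 2, or GDC-0623 replicate 1 or 2, gave 1, and leaving out DMSO replicate 3 gave 2.

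The activators moved in opposite directions. Psme1, the alpha chain of PA28, was at 12.13, 12.03 and 12.05 in GDC-0623 cells at 72 h, against 11.11, 11.07 and 11.15 in DMSO cells. The 24 h values were 11.48, 11.38 and 11.55 in GDC-0623 cells, against 10.96, 10.82 and 10.85 in DMSO cells. All GDC-0623 arrays lay above all DMSO arrays of the same time. Psme1 was 1.95-fold higher at 72 h (log2 fold change 0.96 ± 0.07, limma adjusted p = 5.98e-05) and 1.51-fold higher at 24 h (0.59 ± 0.08, adjusted p = 7.56e-04). Among the 46 genes this was the largest change in either direction at each time, and the call held under all 15 alternatives at each time.

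The beta chain of PA28 could be read only on the probe set shared by Psme2 and Psme2b. That probe set was at 12.49, 12.43 and 12.49 in GDC-0623 cells at 72 h, against 11.63, 11.61 and 11.63 in DMSO cells. After 24 h the values were 12.15, 12.03 and 12.08 in GDC-0623 cells, against 11.62, 11.52 and 11.55 in DMSO cells. The groups did not overlap at either time. The difference was 0.85 ± 0.07 at 72 h (limma adjusted p = 9.08e-05) and 0.52 ± 0.07 at 24 h (adjusted p = 9.37e-04). The 24 h call was lost only with the minimum fold (adjusted p = 0.0529).

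Psme3, the gamma form of the activator, which forms a cap by itself in the nucleus, went down. It was at 9.17, 9.42 and 9.43 in GDC-0623 cells at 72 h, against 9.98, 9.89 and 9.93 in DMSO cells. By 24 h it stood at 9.46, 9.46 and 9.53 in GDC-0623 cells, against 9.75, 9.69 and 9.74 in DMSO cells. Groups were separate at each time, and the lowest array at 72 h was the outlying replicate 1. Psme3 was 1.51-fold lower at 72 h (log2 fold change −0.59 ± 0.09, limma adjusted p = 0.00206), a call that held in all 15 alternatives. At 24 h it was lower by less (−0.24 ± 0.07, adjusted p = 0.0318), and that call was lost in 9 of 15 alternatives, among them leaving out any DMSO replicate or GDC-0623 replicate 1 or 2, with a log2 fold change of −0.27 to −0.08 over the alternatives. A second bright probe set of Psme3 was lower at 72 h by −0.57 (adjusted p = 0.0103). Psme4, the large ATP-independent activator PA200, was not called, at −0.13 at 72 h and 0.09 at 24 h.

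Psmf1, an inhibitor of the core in vitro that is also known as PI31, was at 8.62, 8.74 and 8.75 in GDC-0623 cells at 72 h, against 9.02, 9.02 and 9.0 in DMSO cells. The 24 h values were 8.67, 8.62 and 8.76 in GDC-0623 cells, against 8.88, 8.91 and 8.81 in DMSO cells. The groups did not overlap at either time. It was called lower at 72 h (−0.31 ± 0.08, limma adjusted p = 0.0183) and not at 24 h (−0.18 ± 0.07, adjusted p = 0.116). The 72 h call rested on this probe set, since the other 3 probe sets of the gene changed by −0.22 to −0.08 without a call and the mean of all probe sets was not called. The call was also lost with the shift, with the minimum fold and without DMSO replicate 1, 2 or 3. Over the alternatives its log2 fold change ran between −0.33 and −0.17.

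**Figure D2:**
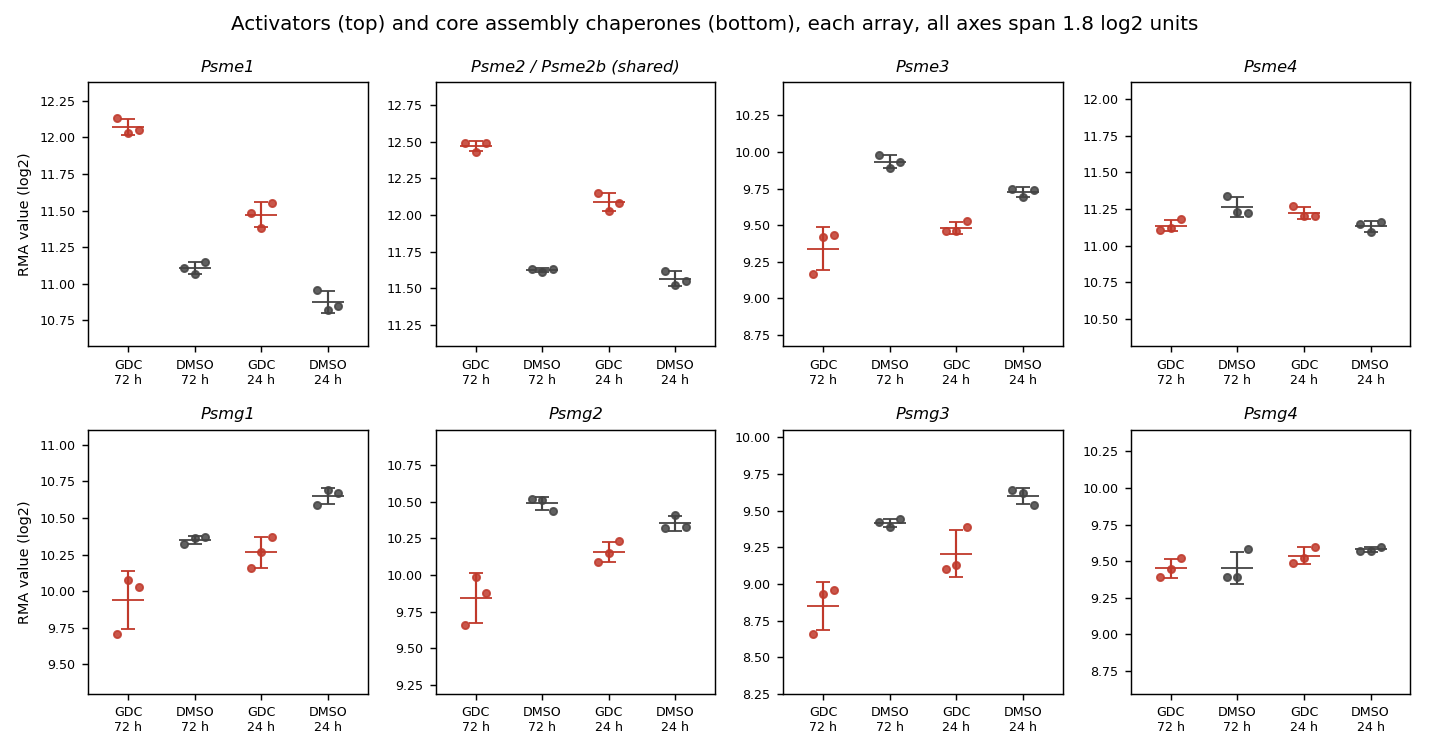
RMA values (log2) of the activators in the top row and of the alpha ring chaperones in the bottom row, with GDC-0623 in red and DMSO in grey, at 72 h and 24 h. Points are arrays, the wide line is the mean and the bar 1 SD (n = 3), and Psme1 and the shared Psme2 probe set lie higher in GDC-0623 cells at each time while Psme3, Psmg1, Psmg2 and Psmg3 lie lower and Psmg4 overlaps.

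Of the 4 chaperones of the alpha ring, 3 were lower at 72 h (75%, against 12.4% of all genes) and 2 at 24 h (50%, against 8.23%), with a median of −0.49 at 72 h and −0.29 at 24 h. Of the genes at 5 or more on 3 arrays, 19% were called lower at 72 h and 12.3% at 24 h. Psmg1 and Psmg2 act as a pair, and Psmg3 and Psmg4 as another. Psmg2 was at 9.66, 9.99 and 9.88 in GDC-0623 cells at 72 h, against 10.52, 10.51 and 10.44 in DMSO cells. Every GDC-0623 array was below every DMSO array, and the difference of −0.65 ± 0.10, 1.57-fold, was the largest fall in the family (limma adjusted p = 0.00174). It was called in all 15 alternatives, and the other 2 probe sets of Psmg2 were also called lower, at −0.57 and −0.29. At 24 h Psmg2 was at 10.09, 10.15 and 10.23 in GDC-0623 cells, against 10.32, 10.41 and 10.33 in DMSO cells. These groups were separate too, but the change of −0.20 ± 0.07 missed the threshold (adjusted p = 0.0924).

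Psmg3 was at 8.66, 8.93 and 8.96 in GDC-0623 cells at 72 h, against 9.42, 9.39 and 9.44 in DMSO cells. After 24 h the values were 9.10, 9.13 and 9.39 in GDC-0623 cells, against 9.64, 9.62 and 9.54 in DMSO cells. The groups were separate at each time, and replicate 3 was the highest of the GDC-0623 arrays at 24 h. The difference was −0.57 ± 0.09 at 72 h (limma adjusted p = 0.00308), called in all alternatives except the minimum fold (adjusted p = 0.0745). At 24 h it was −0.39 ± 0.09 (adjusted p = 0.0148), lost with the shift, with the minimum fold and on leaving out DMSO replicate 1 or 2, or GDC-0623 replicate 1 or 2, with a log2 fold change between −0.49 and −0.23 over the alternatives.

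Psmg1 was at 9.71, 10.08 and 10.03 in GDC-0623 cells at 72 h, against 10.32, 10.36 and 10.37 in DMSO cells. By 24 h it stood at 10.16, 10.27 and 10.37 in GDC-0623 cells, against 10.59, 10.69 and 10.67 in DMSO cells. No array crossed between the groups of a time. The change was −0.41 ± 0.10 at 72 h (limma adjusted p = 0.0226) and −0.38 ± 0.08 at 24 h (adjusted p = 0.00814). The 72 h call was lost with the minimum fold and without DMSO replicate 1, 2 or 3 (log2 fold change between −0.48 and −0.30 over the alternatives). The 24 h call was lost with the shift and the minimum fold only. Psmg4, the partner of Psmg3, overlapped between groups at each time, with a log2 fold change of 0.00 (95% interval −0.19 to 0.19) at 72 h and −0.04 (−0.19 to 0.11) at 24 h.

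The chaperones of the base are Psmd5, Psmd9 and Psmd10, the last also known as the oncoprotein gankyrin. They had log2 fold changes between −0.21 and −0.04 at 72 h and between −0.12 and 0.09 at 24 h, and 0 of 3 was called. Their mean value over the genes was 9.09, 9.11 and 9.05 on the GDC-0623 arrays at 72 h, against 9.22, 9.17 and 9.16 on the DMSO arrays. The mean of the 4 alpha ring chaperones was 9.36, 9.61 and 9.60 on the GDC-0623 arrays at 72 h, against 9.91, 9.91 and 9.96 on the DMSO arrays. At 24 h that mean was 9.71, 9.77 and 9.90 on the GDC-0623 arrays, against 10.03, 10.07 and 10.04 on the DMSO arrays.

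The 14 core subunits expressed in all tissues, Psma1 to Psma7 and Psmb1 to Psmb7, were among the brightest of the family, with means over the 12 arrays between 10.95 and 12.5. At 24 h none of the 14 was called by limma, and 0 had an unadjusted p under 0.05. Their log2 fold changes lay between −0.09 and 0.07 and the 95% intervals of single genes between −0.26 and 0.22. At 72 h the fold changes lay between −0.29 and 0.04 with interval bounds between −0.47 and 0.20, 12 of 14 were below 0, and 5 had an unadjusted p under 0.05. In 8 of the 14, all GDC-0623 arrays lay below all DMSO arrays at 72 h, as they did in 23.7% of all genes and 32.3% of the genes at 5 or more on 3 arrays.

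Psmb3, a structural beta subunit, was called at 72 h, alone among the brightest probe sets of the 14. It was at 11.92, 12.12 and 12.07 in GDC-0623 cells, against 12.33, 12.32 and 12.33 in DMSO cells, with the outlying replicate 1 lowest. The change was −0.29 ± 0.08 (limma adjusted p = 0.0325). The call was lost in 8 of 15 alternatives, including without any DMSO replicate or GDC-0623 replicate 1 or 3, with a log2 fold change between −0.33 and −0.23, and the second probe set changed by −0.23 without a call (adjusted p = 0.102). The alpha subunit Psma7 was not called on its brightest probe set (−0.26), but a second one of nearly the same level was called lower at 72 h (−0.30, adjusted p = 0.0325).

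**Figure D3:**
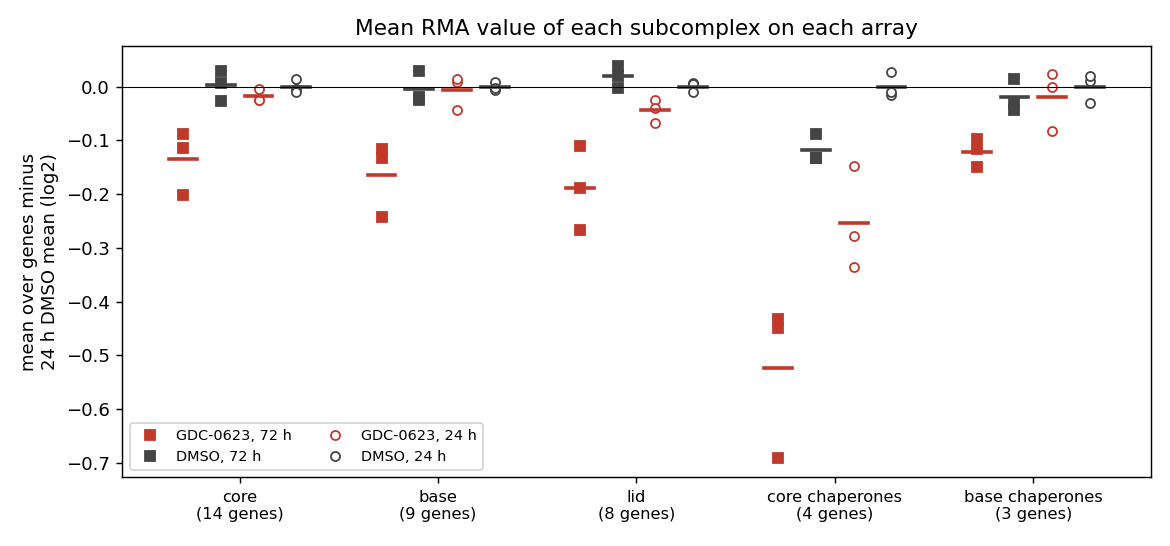
Mean log2 RMA value over the genes of each subcomplex on each array, less the mean of the 24 h DMSO arrays, with GDC-0623 in red and DMSO in grey, filled squares for 72 h and open circles for 24 h. Short lines are means of 3 arrays, and the means of GDC-0623 at 72 h lie at −0.13 for the core, −0.16 for the base, −0.19 for the lid, −0.52 for the alpha ring chaperones (drawn as core chaperones) and −0.12 for the base chaperones.

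In the base of the regulatory particle, 2 of 9 subunits were called lower at 72 h and 0 at 24 h, a share at 72 h of 22.2%, near the 19% of genes at 5 or more on 3 arrays (12.4% of all genes). Psmc6, an ATPase, was at 10.82, 10.88 and 10.90 in GDC-0623 cells at 72 h, against 11.19, 11.27 and 11.21 in DMSO cells. The groups were apart by −0.36 ± 0.07 (limma adjusted p = 0.00847). This call was lost with the minimum fold only, and the other 2 probe sets were called lower as well, at −0.52 and −0.45. The ATPase Psmc1 was at 10.02, 10.22 and 10.11 in GDC-0623 cells, against 10.38, 10.46 and 10.39 in DMSO cells. The groups did not overlap (−0.29 ± 0.08, adjusted p = 0.0325). The call was lost with the shift, with the minimum fold and without any DMSO replicate or GDC-0623 replicate 1 or 3, with a log2 fold change between −0.35 and −0.25. The non-ATPases Psmd1 and Psmd2, the large scaffolds, and Psmd4, a ubiquitin receptor, changed by −0.15 to −0.10 at 72 h without a call. At 24 h the base subunits lay between −0.10 and 0.14 on their brightest probe sets. A dimmer probe set of Psmd4, at a mean of 6.65, was called lower at 24 h (−0.27, limma adjusted p = 0.0271).

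In the lid, 3 of 8 subunits were lower at 72 h (37.5%, against 12.4% of all genes and 19% of those at 5 or more on 3 arrays), and all 8 fold changes were below 0, between −0.30 and −0.05. Psmd14 is the deubiquitinase that strips ubiquitin from substrates as they enter, and Psmd7 is its partner. Psmd14 was at 11.83, 11.97 and 11.86 in GDC-0623 cells at 72 h, against 12.12, 12.19 and 12.19 in DMSO cells. Its groups were separate (−0.28 ± 0.08, limma adjusted p = 0.0311). Psmd7 was at 10.52, 10.76 and 10.56 in GDC-0623 cells at 72 h, against 11, 10.9 and 10.84 in DMSO cells. At 24 h Psmd7 was at 10.76, 10.78 and 10.85 in GDC-0623 cells, against 11.05, 11.04 and 10.97 in DMSO cells. It was close to the threshold at each time, at −0.30 ± 0.09 at 72 h (adjusted p = 0.0464) and −0.22 ± 0.07 at 24 h (adjusted p = 0.0496). The third subunit called at 72 h was Psmd11 at −0.26 ± 0.07 (adjusted p = 0.0343), of whose 7 other probe sets 3 were called lower. Leaving out arrays ended these calls. The 72 h calls of Psmd14 and Psmd7 were lost without any DMSO replicate or GDC-0623 replicate 1 or 3, that of Psmd11 without any DMSO replicate or GDC-0623 replicate 1 or 2, and the 24 h call of Psmd7 without any of the 6 arrays. Each was also lost with the shift and with the minimum fold. Psmd7 lost its call in 10 of 15 alternatives at 72 h and in 11 of 15 at 24 h. At 72 h Psmd11 lost it in 8 of 15 and Psmd14 in 7 of 15. Over the alternatives the log2 fold change was between −0.32 and −0.25 for Psmd14, −0.37 and −0.23 for Psmd7 at 72 h, −0.29 and −0.23 for Psmd11, and −0.25 and −0.06 for Psmd7 at 24 h. A dimmer probe set of Psmd11, at a mean of 9.345, was called lower at 24 h (−0.26, limma adjusted p = 0.0374), while its brightest was not (−0.10).

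Psmd8, another lid subunit, went the other way at 24 h. It was at 12.24, 11.96 and 11.93 in GDC-0623 cells at 24 h, against 11.66, 11.59 and 11.61 in DMSO cells, a difference of 0.42 ± 0.09 (limma adjusted p = 0.0116) that was lost with the minimum fold only. At 72 h it was at 11.92, 12 and 11.77 in GDC-0623 cells, against 12.05, 11.95 and 11.85 in DMSO cells, and the groups overlapped (−0.05 ± 0.09, adjusted p = 0.756). The 24 h DMSO arrays were the lowest of the 4 groups. Psmd8 has 1 probe set here.

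The genes found only by their symbols differed from each other. Psmc3ip, a partner of recombinases in homologous pairing, was at 7.91, 8.40 and 8.40 in GDC-0623 cells at 72 h, against 8.78, 8.84 and 8.89 in DMSO cells. The 24 h values were 8.44, 8.57 and 8.76 in GDC-0623 cells, against 8.93, 8.82 and 8.92 in DMSO cells. It was lower at 72 h (−0.60 ± 0.13, limma adjusted p = 0.0111) and, at the threshold, at 24 h (−0.30 ± 0.09, adjusted p = 0.0499), and a second probe set was called lower at each time. The 24 h call was lost in 9 of 15 alternatives, among them leaving out any DMSO replicate or GDC-0623 replicate 1 or 2, with a log2 fold change between −0.39 and −0.13. Psme3ip1, a nuclear protein that binds the Psme3 activator, was at 0.00 at 72 h and −0.03 at 24 h without a call. Without these 2 genes, the other 44 held 11 lower calls at 72 h (25%, against 12.4% of all genes) and 4 at 24 h (9.09%, against 8.23%).

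The constitutive cutting subunits were not called at either time, while their immune counterparts were higher. Psmb5 was at 11.28, 11.45 and 11.53 in GDC-0623 cells at 72 h, against 11.71, 11.64 and 11.68 in DMSO cells, and was not called (−0.26 ± 0.09, limma adjusted p = 0.0687). Psmb6 and Psmb7 were at −0.15 ± 0.07 and −0.20 ± 0.08 at 72 h (adjusted p = 0.198 and 0.108), with intervals of −0.32 to 0.01 and −0.37 to −0.03. At 24 h the 3 genes lay between −0.08 and 0.07 without a call. Psmb9, which takes the place of Psmb6, was at 10.84, 10.40 and 10.46 in GDC-0623 cells at 72 h, against 8.98, 8.84 and 8.84 in DMSO cells, 3.20-fold higher (1.68 ± 0.12, adjusted p = 3.87e-05). After 24 h the values were 9.31, 9.28 and 9.28 in GDC-0623 cells, against 8.60, 8.34 and 8.08 in DMSO cells (0.95 ± 0.12, adjusted p = 6.30e-04).

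Psmb10, which takes the place of Psmb7, was at 12.17, 11.97 and 12.05 in GDC-0623 cells at 72 h, against 10.78, 10.69 and 10.76 in DMSO cells (1.32 ± 0.08, limma adjusted p = 2.00e-05). By 24 h it stood at 11.49, 11.46 and 11.60 in GDC-0623 cells, against 10.87, 10.61 and 10.66 in DMSO cells (0.80 ± 0.09, adjusted p = 2.93e-04). Psmb8, which takes the place of Psmb5, was at 12.29, 12.09 and 12.08 in GDC-0623 cells at 72 h, against 11.22, 11.04 and 11.08 in DMSO cells (1.04 ± 0.09, adjusted p = 1.12e-04). The 24 h values were 11.52, 11.43 and 11.47 in GDC-0623 cells, against 11.02, 10.84 and 10.75 in DMSO cells (0.60 ± 0.08, adjusted p = 0.00115). No array overlapped between the groups of a time for these 3 genes, and each of the 6 calls held in all 15 alternatives.

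**Figure D4:**
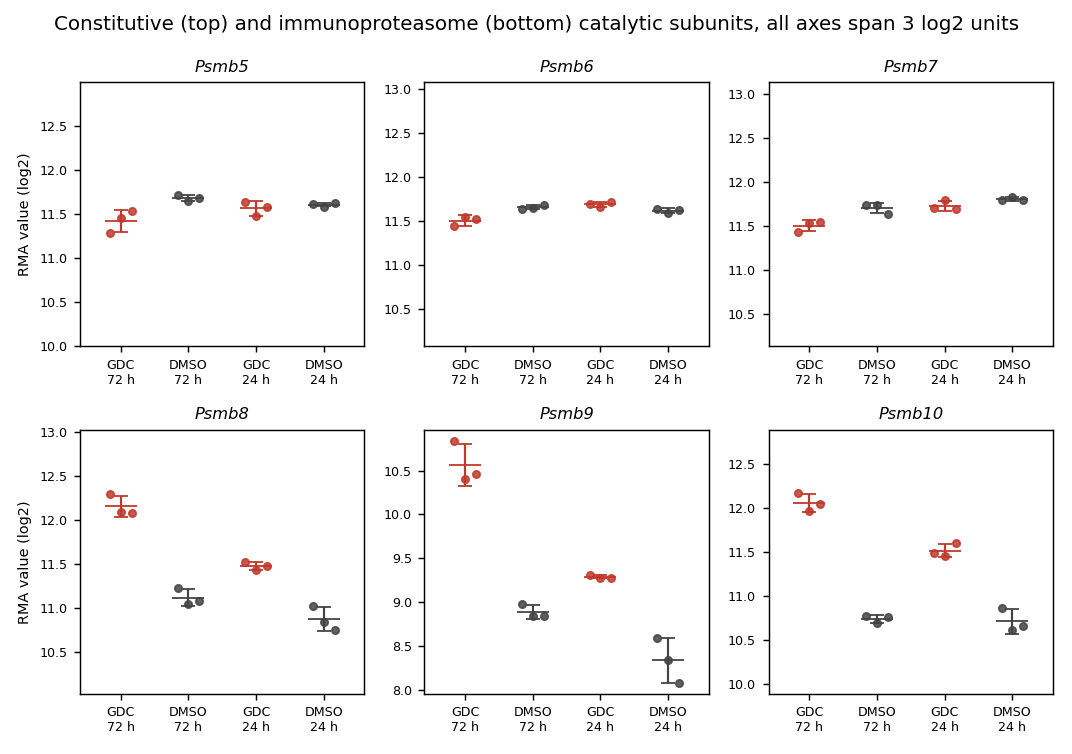
RMA values (log2) of the constitutive cutting subunits in the top row and of the immunoproteasome subunits in the bottom row, GDC-0623 in red and DMSO in grey, at 72 h and 24 h. Points are arrays, the wide line is the mean and the bar 1 SD (n = 3), every axis spans 3 log2 units, and the differences between GDC-0623 and DMSO at 72 h are −0.26 to −0.15 in the top row and 1.04 to 1.68 in the bottom row.

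Whether the drug effect itself differed between 72 h and 24 h was tested as a contrast over the 12 arrays. By limma 0 of 46 genes were called larger or smaller (against 1.62% and 1.46% of all genes), and 8 had an unadjusted p under 0.05, 1 above 0 and 7 below. With the trended and robust prior, and likewise with the filter on dim probe sets, 1 was called above 0 and 3 below. The values furthest from 0 were those of Psmd8 (−0.48 ± 0.13, adjusted p = 0.0879), Psmg2 (−0.45 ± 0.12, adjusted p = 0.0719), Psme1 (0.37 ± 0.10, adjusted p = 0.0831) and Psme3 (−0.35 ± 0.11, adjusted p = 0.135). The median over the family was −0.13, against −0.01 over all genes. A dimmer probe set of Psmg2 was called below 0 in this contrast (−0.45, adjusted p = 0.0472), with a drug effect of −0.57 at 72 h and −0.12 at 24 h. Of the immune subunits, Psmb9 differed by 0.73 ± 0.18 (adjusted p = 0.0549), Psmb10 by 0.52 ± 0.12 (adjusted p = 0.0362) and Psmb8 by 0.44 ± 0.12 (adjusted p = 0.0960). Psmb10 was called, a call lost in 11 of 20 alternatives with a value between 0.36 and 0.57, while Psmb9 was called in 7 of 20 and Psmb8 in 3 of 20.

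The comparison of times in culture without inhibitor gave a count of calls that depended on the fit. Between DMSO cells at 72 h and DMSO cells at 24 h, 1 of 46 genes was higher (2.17%, against 8.41% of all genes) and 1 lower (2.17%, against 5.14%), with a family median of 0.02 and a median of −0.02 over all genes. The arrays were separate for 11 genes on the higher side (23.9%, against 17.2%) and for 9 on the lower side (19.6%, against 19%). Of the genes at 5 or more on 3 arrays, 26.2% were separate on the higher side and 24.5% on the lower side. With the trended and robust prior 8 genes were called higher and 5 lower, and with dim probe sets left out 5 higher and 3 lower. Psmd8 was higher (0.33 ± 0.07, limma adjusted p = 0.0210) and Psmg1 lower (−0.30 ± 0.06, adjusted p = 0.0171). Both calls were lost with the minimum fold and without 24 h DMSO replicate 2 or 3 or 72 h DMSO replicate 1. That of Psmd8 was also lost without 72 h DMSO replicate 2, and that of Psmg1 with 1 fit over the 12 arrays and with the shift. Log2 fold changes ran between 0.28 and 0.38 for Psmd8 and between −0.33 and −0.26 for Psmg1. These values share the 24 h DMSO arrays with the drug comparison at 24 h, where the same genes stood at 0.42 and −0.38.

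Between GDC-0623 cells at 72 h and GDC-0623 cells at 24 h, Psme1 was the 1 gene called higher (2.17%, against 5.79%), at 0.60 ± 0.08 (limma adjusted p = 0.00273), and 0 were called lower (against 3.11%). Dimmer probe sets were called lower for Psmg2 (−0.37, adjusted p = 0.0394) and Psmc6 (−0.43 and −0.47, adjusted p = 0.0235 and 0.0257). A dim probe set of Psmd9, at a mean of 2.84, was called higher (0.42, adjusted p = 0.0415). This probe set, in the background range, was also called lower under GDC-0623 at 24 h (−0.36, limma adjusted p = 0.0135). In the difference of effects it was called above 0 (0.57, adjusted p = 0.0495). The shared Psme2 probe set was 0.38 ± 0.08 higher (adjusted p = 0.0176). That call was lost with the shift, with the minimum fold and without GDC-0623 replicate 2 or 3 of 24 h, with a log2 fold change between 0.26 and 0.42. The family median was −0.13, against −0.03 over all genes, and 15 genes had an unadjusted p under 0.05, 14 of them below 0. In 24 genes all 72 h arrays lay below all 24 h arrays (52.2%, against 19.1%), and in 2 genes above (4.35%, against 14.1%). Of the genes at 5 or more on 3 arrays, 25.7% were separate on the lower side and 19.6% on the higher side. Called lower were 8 genes with 1 fit over the 12 arrays, 7 with the shift and 7 with the trended prior.

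Of 33 further genes of the pathway that were listed, 24 had a probe set of their own. At 72 h 5 of them were higher and 6 lower, and at 24 h 5 were higher and 2 lower, the immune subunits included. As shares of the 24 genes these are 20.8% higher and 25% lower at 72 h (against 13.8% and 12.4% of all genes) and 20.8% higher and 8.33% lower at 24 h (against 13.3% and 8.23%). Of the genes at 5 or more on 3 arrays, 21.2% were higher and 19% lower at 72 h, and 21% and 12.3% at 24 h. The share on the higher side was thus near that of genes of similar level. The immune subunits made up 3 of the 5 higher genes at each time. Pomp, the maturation factor of the beta ring, was not called, at 0.01 ± 0.07 at 72 h and −0.10 ± 0.06 at 24 h. Nfe2l1, the transcription factor that induces proteasome genes when degradation falls short, was at 11.32, 11.14 and 11.27 in GDC-0623 cells at 72 h, against 10.99, 10.97 and 11.04 in DMSO cells (0.24 ± 0.08, limma adjusted p = 0.0622). After 24 h the values were 10.90, 10.75 and 10.77 in GDC-0623 cells, against 10.46, 10.41 and 10.49 in DMSO cells, with the groups separate and the gene called higher (0.35 ± 0.07, adjusted p = 0.00852). Ngly1, which deglycosylates Nfe2l1 and so activates it, was at 8.21, 8.09 and 8.25 in GDC-0623 cells at 72 h, against 7.42, 7.43 and 7.44 in DMSO cells (0.75 ± 0.08, adjusted p = 2.49e-04). At 24 h it was 0.46 ± 0.08 higher (adjusted p = 0.00457).

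Among the proteins that work beside the proteasome, the genes furthest below DMSO at 72 h were Uchl5, Ubqln4 and Sqstm1. Uchl5, a deubiquitinase of the base, differed by −0.57 ± 0.13 (limma adjusted p = 0.0148). Ubqln4, a ubiquitin shuttle, differed by −0.47 ± 0.11 (adjusted p = 0.0193). Sqstm1, the autophagy receptor p62, differed by −0.45 ± 0.08 (adjusted p = 0.00364). Uchl5 was at 9.31, 9.84 and 9.78 in GDC-0623 cells at 72 h, against 10.17, 10.24 and 10.23 in DMSO cells. Its groups were separate, and the outlying replicate 1 was lowest. Ubqln4 was at 8.33, 8.53 and 8.78 in GDC-0623 cells at 72 h, against 8.93, 9.04 and 9.07 in DMSO cells. Sqstm1 was at 12.75, 12.91 and 12.87 in GDC-0623 cells at 72 h, against 13.33, 13.31 and 13.25 in DMSO cells. Its 24 h means were 12.84 in DMSO cells and 12.76 in GDC-0623 cells. The 72 h difference in Sqstm1 thus went with a higher level in DMSO cells at 72 h. Of 5 shuttle genes, 4 were called lower at 72 h and 0 at 24 h, namely Ubqln4, Sqstm1, Rad23b and Ubqln2 (80%, against 12.4% of all genes at 72 h and 19% of those at 5 or more on 3 arrays). At 24 h Uchl5 and the ubiquitin ligase Ube3c were called lower, each at −0.26 (adjusted p = 0.0407 and 0.0231). Leaving out single arrays ended the 72 h calls of Uchl5 (DMSO replicate 2) and Ubqln4 (DMSO replicate 2 or 3, GDC-0623 replicate 2). It also ended the 24 h calls of Uchl5 (any array) and Ube3c (DMSO replicate 1, 2 or 3, GDC-0623 replicate 2). Each of these calls was lost with the minimum fold too, and the 24 h calls also with the shift. Over the alternatives the log2 fold changes were between −0.67 and −0.40 for Uchl5 and −0.58 and −0.36 for Ubqln4 at 72 h, and between −0.29 and −0.09 for Uchl5 and −0.28 and −0.09 for Ube3c at 24 h.

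Of the 46 genes, 38 had a promoter entry, with 41 windows of 300 bases (250 before to 50 after the start), among 32851 windows in all. The ETS-like letters CCGGAAG, on either strand, were in 17 of the 41 windows (41.5%), against 8.86% of all windows and 17.7% of the windows of genes at 5 or more on 3 arrays. Counted by gene, 7 of the 10 genes lower at 72 h with an entry held them, and 9 of the 27 that were not called. Psmc3ip was among the 7 and Psme3ip1 among the 9, and neither is a proteasome subunit. The ETS-like letters varied between subcomplexes. They were in 4 of 6 lid windows, 4 of 6 base ATPase windows and 0 of 5 core beta windows. The core beta windows were those of Psmb3, Psmb4, Psmb5, Psmb6 and Psmb11, the last a gene in the background range here. Psmb1, Psmb2 and Psmb7 had no entry, so these counts do not cover the whole beta ring. The letters TGANNNNGC, which resemble an antioxidant response element of the kind Nfe2l1 binds, were in 23 windows (56.1%, against 41.3% of all) and in all 5 core beta windows. The interferon response element like letters shown for Psme1 were in 5 windows (12.2%, against 3.44%), Psme1 among them. The others were those of Psmb3, called lower at 72 h, and of Psmd4, Psmd9 and Psmg4, which were not called. The windows of Psme2, Psmb8, Psmb9 and Psmb10, which are not among the 41, held 0. CCAAT was in 15 (36.6%, against 37.4%), and TTCNNNGAA, which resembles a gamma activated site, in 2 (4.88%, against 8.3%). CCGGAAG, TGANNNNGC and the other motifs were searched on both strands and may overlap one another. These are counts of letters, with no test.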

How the data were processed

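Total RNA of MC38 cells was hybridised to 12 one-colour Affymetrix mouse arrays. The deposited table holds log2 values that the authors made by robust multichip averaging (RMA), whose quantile normalization makes the arrays alike in distribution, so a shift common to most genes is removed. The sources used here give no version of RMA and no genome build. The 64 control probe sets were left out. Genes were named through the platform annotation, updated by gene identifier (34945 of 45037 probe sets had 1 symbol), and each was read from its brightest probe set over the 12 arrays. Tests were two-sided fits of limma 3.58.1 (functions lmFit and eBayes) in R 4.3.3, adjusted after Benjamini and Hochberg over 45037 probe sets with a threshold of 0.05, on the 6 arrays of a comparison or, for the difference of effects, on 12. The scripts were tested on simulated data. Promoters are RefSeq sequences of GRCm38.p6. Figures were drawn with matplotlib 3.10.9.

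The family and the lists were chosen with earlier results of these data known. Values on every array were given for Psme1, Psme2, Psmf1, the called genes of each subcomplex with the 2 largest changes per drug comparison, and a few named genes of the pathway. Values of Psmb5, Psmg2 at 24 h and Psmd8 at 72 h were added for contrast. The alternatives were 1 fit over 12 arrays, a replicate block, a filter on dim probe sets (5 or more on at least 3 arrays), repeated quantile normalization, a shift by 9 hybridization control probe sets, a trended and robust prior, array weights, a fold of at least 1.2 in the test, averaged probe sets per gene, and leaving out each array. The number of arrays limits the precision, and p-values measure the spread between the 3 arrays of a group.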

Additional observations from a re-analysis of the deposited data

Results flagged for a closer look

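The effect of GDC-0623 on the immunoproteasome subunit Psmb10 differed between the times, and it was larger at 72 h by 0.52 ± 0.12 on the log2 scale (limma on 12 arrays, adjusted p = 0.0362). The effect itself was 1.32 at 72 h and 0.80 at 24 h, with 3 of 3 GDC-0623 arrays above all DMSO arrays at each time. The call of the difference was lost in 11 of 20 alternatives, with an adjusted p between 0.00463 and 1 and a value between 0.36 and 0.57 over them. Leaving out any 1 array ended it, except 24 h DMSO replicate 2, 24 h GDC-0623 replicate 3 or 72 h GDC-0623 replicate 2. Psmb9 (0.73, adjusted p = 0.0549) and Psmb8 (0.44, adjusted p = 0.0960) were not called in the same contrast.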

How the results depend on the processing

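The calls of GDC-0623 against DMSO for Psme1 at each time, and for Psme3 and Psmg2 at 72 h, held in every alternative run. Every other call of the 46 genes was lost with the minimum fold of 1.2, and many were lost in further alternatives. No call of the 46 genes changed direction. Counts of genes called higher or lower moved as follows. With 1 fit over 12 arrays, 19 were lower at 72 h, 3 at 24 h, 0 over time in DMSO and 8 over time in GDC-0623. With the filter on dim probe sets, 8 were lower at 24 h, the difference of effects had 1 higher and 3 lower, time in DMSO 5 and 3, and time in GDC-0623 had 3 lower. With the trended and robust prior, 19 were lower at 72 h and 8 at 24 h, the difference had 1 and 3, time in DMSO 8 and 5, and time in GDC-0623 had 7 lower. With the shift by hybridization controls, 6 were lower at 72 h and 0 at 24 h, time in DMSO had 0 lower and time in GDC-0623 had 7. The shift moved the median of all genes at 24 h to 0.14, against −0.03 without it, and their calls to 3263 higher and 344 lower, against 2421 and 1497 without it. With a minimum fold of 1.2, 2 were lower at 72 h, 1 was higher and 0 lower at 24 h, and over time there were 0 higher and 0 lower in DMSO and 0 higher in GDC-0623. With averaged probe sets per gene, the difference had 1 higher and 1 lower, time in DMSO 3 higher and time in GDC-0623 4 lower. Leaving out 1 array gave 5 to 11 lower at 72 h, 1 to 4 lower at 24 h, 0 to 1 lower for the difference, 0 to 1 higher and 0 to 1 lower over time in DMSO, and 0 to 1 lower over time in GDC-0623. Pomp, which was not called, changed sign at 24 h with the shift (0.064) and at 72 h without DMSO replicate 1 (−0.0033, in a range of −0.0033 to 0.018 with 1 array left out). The causes of these moves were not tested.

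Arrays with the same replicate number deviated together only weakly (correlations of 0.01 to 0.29, with no comparison in which every pair was over 0.1), so the numbers were not used to pair samples. With a replicate block, 9 were lower at 72 h, 2 at 24 h, 1 for the difference and 2 over time in GDC-0623. Signal above background does not limit 44 of the genes, while Psma8 and Psmb11 lay in the background range, where a change would be understated. Probe sets with extra matches, such as that of Psme2 and Psme2b, cannot tell the genes apart.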
